A study of Mus musculus with 8 samples.

Results

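Hmga1 and Hmga2, architectural proteins of chromatin, and Igf2bp1, Igf2bp2 and Igf2bp3, a family of RNA-binding proteins, were followed in mouse RNA labelled as cerebral cortex. The members were all probe sets that the platform annotation names for these genes, 14 of the 45101 probe sets on the array, for 3 of 18194 named genes. Hmga2 had 4, Igf2bp1 had 4 and Igf2bp3 had 6, and Hmga1 and Igf2bp2, for which the annotation names none, were not analysed here. The gene set was selected on the log2 difference of Hmga2 between FGF2 and vehicle in these arrays, so that comparison is given as a description, with no test, for every member.

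The 8 arrays fell into 4 groups of 2. One received vehicle, one FGF2 (fibroblast growth factor 2), and the others FGF2 together with either U0126, an inhibitor of the MEK kinases that activate ERK, or SB202190, an inhibitor of the kinase p38. The series title names an astroglial programme, and the labels state neither dose, time, age nor strain. They number the samples of a group without naming their origin, and the p-values therefore describe the spread between arrays, which may be technical. The label of SB202190 replicate 2 gives acclimatization as its treatment type where the other 7 give wait. All 10 listed astrocyte marker genes passed the signal filter, whereas 4 of 8 neuronal markers did not (Rbfox3, Snap25, Slc17a7 and Nefl), nor did 4 of 7 microglial markers. All 6 meningeal fibroblast markers, all 6 ependymal markers and 4 of 5 oligodendrocyte precursor markers also passed, so passing was not particular to astrocytes. The summed astrocyte marker signal was 24965 to 25213 in vehicle, 13424 to 13542 in FGF2, 16569 to 16864 with U0126 and 13106 to 13290 with SB202190. The ependymal sum was 3888 to 4012, 1505 to 1550, 2341 to 2478 and 1165 to 1232 in the same order. The meningeal fibroblast sum was 8789 to 8791, 4453 to 4703, 4366 to 4509 and 3797 to 4323. The oligodendrocyte precursor sum was 1822 to 1835, 3357 to 3430, 2282 to 2385 and 2674 to 2828, lowest in vehicle and highest with FGF2, as Hmga2 was on 2 of its probe sets. That sum does not stand for each precursor marker. Of the 4 past the filter, 1 was called higher by limma and 0 lower in FGF2 against vehicle, with a median log2 difference of -0.11. In the same comparison 10 of 10 astrocyte, 6 of 6 ependymal and 5 of 6 meningeal fibroblast markers were called lower, and 0 higher. Over all probe sets 30.5% were called there. The part of these markers in the results below was not tested. In such samples fewer cells of a type and less RNA per cell cannot be told apart. FGF2 replicate 2 stood apart in a hybridisation control: its cre signal was 10270, and the range elsewhere was 7578 to 8276. Without it the log2 differences of Hmga2 between FGF2 and vehicle, given below, were 4.18, 4.97 and 5.40.

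Hmga proteins bind AT-rich DNA in the minor groove and bend it, which lets transcription factors assemble; Hmga2 is abundant in embryonic and proliferating cells and scarce in most adult tissues. The Igf2bp proteins bind mRNAs, among them that of Igf2, and affect their stability, place in the cell and translation. Hmga2 and the Igf2bp genes are known targets of the let-7 microRNAs, which pair with their mRNAs through the seed. The let-7 miRNAs were not measured here. Their shared seed is printed because 2 of the gene lists below concern let-7, its processing and its reported targets. In RefSeq, 11 mature mouse miRNAs carried the same bases 2 to 8, in capitals; 9 of them have let-7 in their name, and 3 examples follow, 5′ to 3′.
mmu-let-7a-5p: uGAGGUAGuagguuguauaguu
mmu-let-7i-5p: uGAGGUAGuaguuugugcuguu
mmu-miR-98-5p: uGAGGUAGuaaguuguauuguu

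The 250 bases upstream of Hmga2 are shown because they lie at the member gene with the largest log2 differences between groups. They are from RefSeq on GRCm38.p6, chr10:120476470-120476719, minus strand, 5′ to 3′ along the gene, and the build of the array design is not given in the sources used here. Capitals mark the copies of CTCTCTCT and the GC box GGGCGG, which is here on the other strand and is read as CCGCCC.
Hmga2 upstream: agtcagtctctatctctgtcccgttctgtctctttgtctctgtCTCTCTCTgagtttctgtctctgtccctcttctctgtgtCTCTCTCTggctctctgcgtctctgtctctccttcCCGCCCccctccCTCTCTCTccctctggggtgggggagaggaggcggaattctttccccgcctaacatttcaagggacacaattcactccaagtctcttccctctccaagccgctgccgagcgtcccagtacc
The window held 3 copies of CTCTCTCT, searched on both strands with overlapping copies counted, a motif that 3.53% of 32851 upstream windows of the same length held, and which was picked after the sequence had been seen. It held 1 GC box, as did 32.7% of windows, and no copy of the AP-1 motif TGANTCA (6.75% of windows) or the ETS motif CCGGAA (12.03%). C or T made up 70.8% of its bases, against a median of 50% over all windows, and 0.414% of windows were at or above it. These letters are a description of the window.

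Hmga2 was low in vehicle and high in both FGF2 and FGF2 with SB202190, and lay between them with U0126. On the probe set 1450780_s_at the signals were 54.9 and 40.3 in vehicle, 820.1 and 830.5 in FGF2, 217.4 and 222.4 with U0126, and 787 and 791 with SB202190. The 4 groups did not overlap on this probe set. On 1422851_at the signals were 24.3 and 35.8 in vehicle, 884 and 875 in FGF2, 228.5 and 327 with U0126, and 815.2 and 945.4 with SB202190. There the FGF2 and SB202190 arrays overlapped and the U0126 arrays lay below both. On 1450781_at they were 11.8 and 9.81 in vehicle, 459 and 521 in FGF2, 96.1 and 110.6 with U0126, and 452 and 412 with SB202190. All 3 probe sets ordered the groups alike except for FGF2 and SB202190 on 1422851_at.

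**Figure D1:**
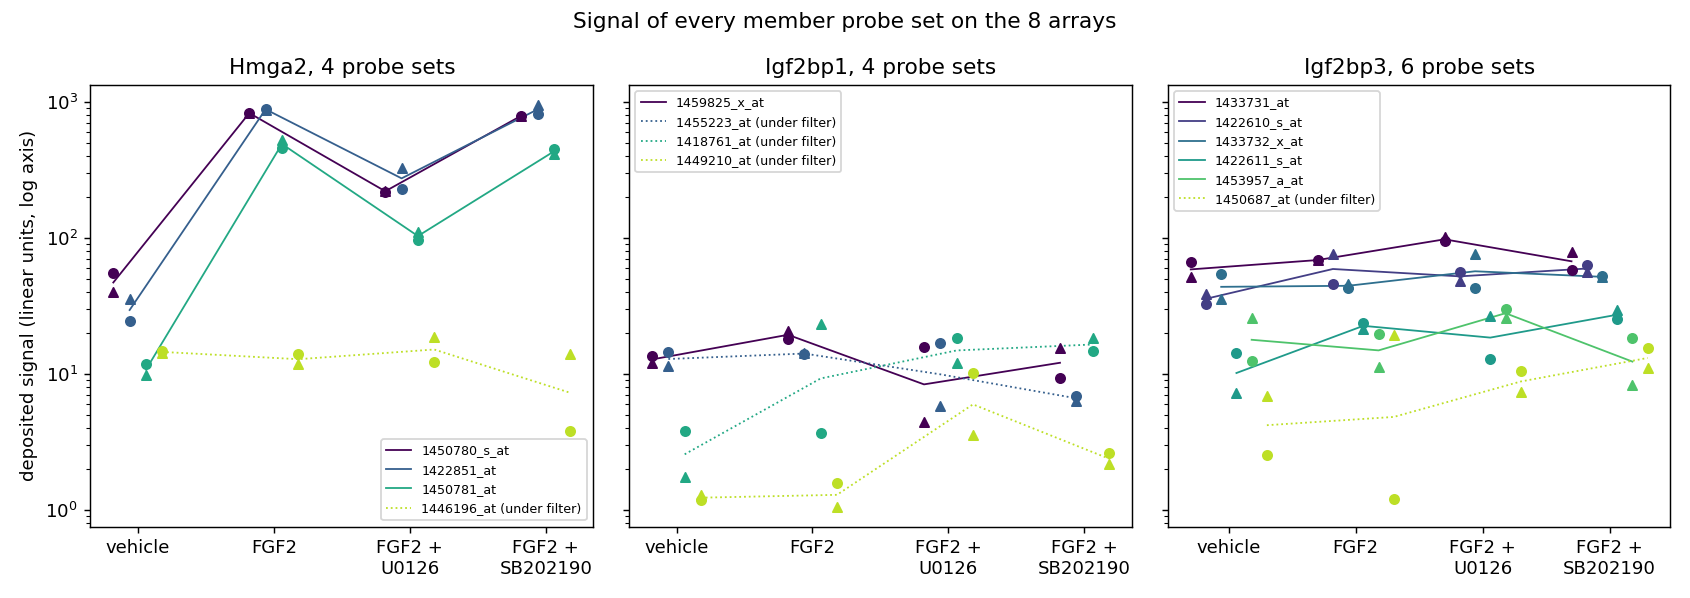
Deposited signal, on a log axis, of each member probe set in the 4 groups. Circles are replicate 1, triangles replicate 2, lines the geometric mean of the 2, and dotted lines probe sets below the signal filter; Hmga2 1450780_s_at runs from 54.9 and 40.3 in vehicle to 820.1 and 830.5 in FGF2.

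In FGF2 against vehicle the mean signals of Hmga2 were 17.3, 29.2 and 45.3 times as high on 1450780_s_at, 1422851_at and 1450781_at. On the log2 scale the differences were 4.18 ± 0.12, 4.96 ± 0.19 and 5.49 ± 0.15 (SE, n = 2 per group). The vehicle mean of 1450781_at, 3.45 on the log2 scale, lies under the filter of 3.83, so its ratio of 45.3 rests on a low signal. Its log2 difference depends on the pseudocount. The FGF2 arrays lay above the vehicle arrays on all 3 probe sets, as they did for 33.4% of all probe sets tested. In this comparison 30.5% of all probe sets were called, and nothing is read from the members against it. A pseudocount of 16 in place of 1.77 gave 3.81, 4.38 and 4.32, with 1422851_at then the largest. The fourth Hmga2 probe set, 1446196_at, is annotated through a different transcript sequence and did not pass the filter, with 11.9 to 14.7 in vehicle and FGF2 and 3.80 to 18.7 with the inhibitors. The probe set 1440559_at of the pseudogene Hmga2-ps1, not a member, gave 12.02 and 19.2 in vehicle, 20.1 and 28.0 in FGF2, 14.2 and 9.08 with U0126, and 26.7 and 24.6 with SB202190.

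The comparison of the 2 inhibitors is the one in which Hmga2 could be tested, since the stated rule of choice did not use it. The members were, however, chosen with earlier results of these data known, and both groups received FGF2. Its p-values are therefore not those of a gene picked without regard to the data. Hmga2 was lower with U0126 than with SB202190 on all 3 probe sets that passed the filter, and the arrays of the 2 groups did not overlap, as on 28.2% of all probe sets in that direction. The log2 differences were -1.83 ± 0.12 on 1450780_s_at, -1.68 ± 0.19 on 1422851_at and -2.04 ± 0.15 on 1450781_at, or 3.55-, 3.20- and 4.11-fold (limma, Benjamini-Hochberg adjusted p = 1.77e-06, 9.03e-05 and 3.57e-06). In all, 3 of 9 tested member probe sets were called, all lower, against 16.7% of all probe sets called and 8.46% called lower. Each of the 3 was called under every alternative in which it was fitted, with adjusted p from 1.79e-07 to 0.0266; the alternative of 1 probe set per gene fits only 1450780_s_at. Leaving out any 1 array, SB202190 replicate 2 included, the differences ran from -2.15 to -1.42. The 3 probe sets target 1 gene and are not replicates of the comparison. With U0126 relative to SB202190, 7 of 10 astrocyte markers were higher and 1 lower (median log2 difference 0.38), and 5 of 6 ependymal markers were higher and 0 lower (median 0.94). Of 6 meningeal fibroblast markers 3 were higher and 1 lower, and of 4 oligodendrocyte precursor markers 0 were higher and 2 lower. Their part in the difference of Hmga2 was not tested.

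The share of the FGF2 difference that was left beside each inhibitor, which uses the same vehicle and FGF2 arrays and is a description, was 54.7%, 66.1% and 59.6% of the log2 difference with U0126 on the 3 probe sets, and 98.4%, 99.9% and 96.8% with SB202190. On the signal scale the shares were 22.2%, 29.2% and 19.3% with U0126, and 95.3%, 100.1% and 87.9% with SB202190. The Hmga2 signal with U0126 stayed 2.28 to 3.28 above vehicle on the log2 scale. No group received an inhibitor without FGF2. An effect of an inhibitor on the FGF2 response thus cannot be told apart from one on the level of Hmga2 without FGF2. Against FGF2 alone the differences were -1.90 ± 0.12, -1.68 ± 0.19 and -2.22 ± 0.15, with no test, and the arrays did not overlap, as was so for 28.4% of all probe sets in that direction. Between SB202190 and FGF2 alone the differences were -0.07 ± 0.12, -0.00 ± 0.19 and -0.18 ± 0.15; the arrays did not overlap on the first and the last of these, as on 23.9% of all probe sets in that direction.

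**Figure D2:**
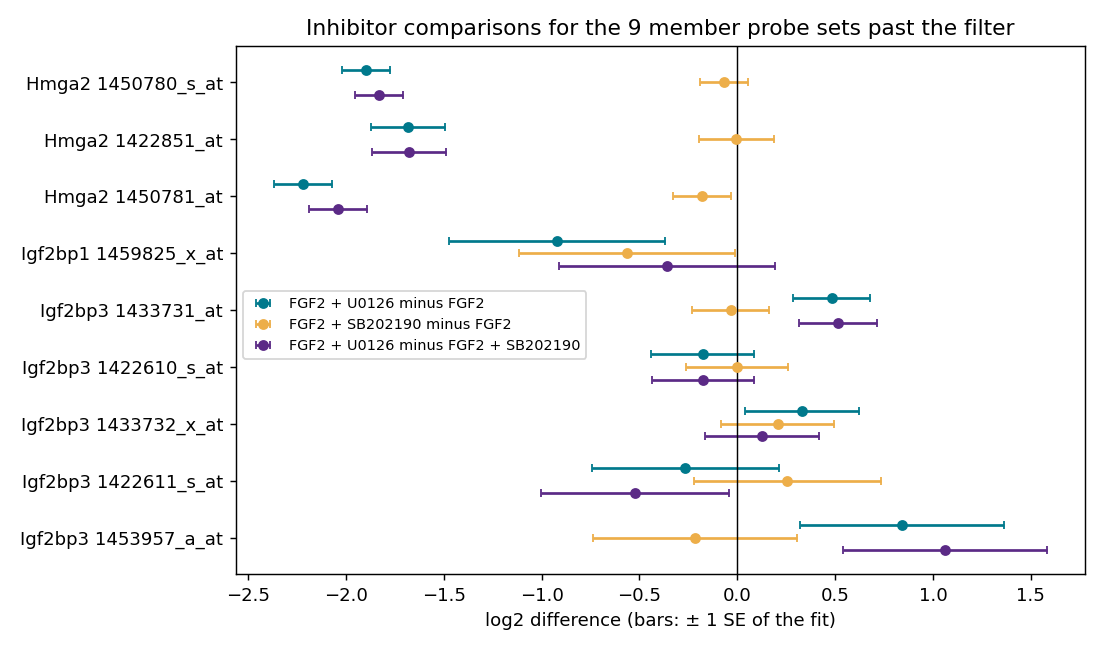
log2 differences, on the x axis, of the 9 member probe sets past the filter in the 3 comparisons among the FGF2 groups, with bars of 1 SE. The Hmga2 values against FGF2 alone carry no test. Between the inhibitors Hmga2 lies from -2.04 to -1.68 and the Igf2bp probe sets from -0.52 to 1.06.

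Igf2bp1 was low on every array. Its only probe set past the filter, 1459825_x_at, gave 13.6 and 12.1 in vehicle, 18.2 and 20.7 in FGF2, 15.9 and 4.45 with U0126, and 9.41 and 15.6 with SB202190. The FGF2 arrays were above the vehicle arrays, with a log2 difference of 0.77 ± 0.55, given as a description. The suffix _x_at marks a probe set with probes that may also bind other transcripts, and _s_at one whose probes match more than 1 transcript. 1459825_x_at passed the filter of 3.83 through the FGF2 arrays, whose log2 mean was 4.45, since the means were 3.68 in vehicle, 3.53 with U0126 and 3.89 with SB202190. Its tests against FGF2 therefore rest on the group that admitted it. In the 5 comparisons other than FGF2 against vehicle it was not called, with adjusted p from 0.305 to 0.886. The 3 others, 1455223_at, 1418761_at and 1449210_at, were below the filter, with signals of 1.07 to 23.2, and the FGF2 arrays of 1418761_at gave 3.71 and 23.2.

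Igf2bp3 was measured by 5 probe sets past the filter, and they differed in their order of the groups. On 1433731_at the signals were 66.3 and 52.0 in vehicle, 68.8 and 68.7 in FGF2, 94.4 and 100.8 with U0126, and 57.9 and 78.2 with SB202190, so that the U0126 arrays were the highest. On 1422610_s_at they were 32.8 and 38.9, 46.0 and 75.9, 56.5 and 48.1, and 63.3 and 56.0 in the same order, with vehicle lowest. On 1422611_s_at they were 14.2 and 7.31, 23.9 and 21.4, 12.9 and 26.7, and 25.2 and 29.5. The other 2 probe sets ran from 35.5 to 76.0 (1433732_x_at) and from 8.25 to 30.2 (1453957_a_at). On 1453957_a_at the U0126 arrays, at 30.2 and 25.9, were also the highest, with vehicle replicate 2 close by at 25.6. On 1433732_x_at U0126 had the highest mean signal, 59.3, but its arrays lay far apart at 42.5 and 76.0. The sixth, 1450687_at, did not pass the filter, at 1.21 to 19.4.

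FGF2 minus vehicle on the log2 scale, as a description, was 0.33 ± 0.20, 0.87 ± 0.26, 0.17 ± 0.29, 1.28 ± 0.48 and -0.04 ± 0.52 on 1433731_at, 1422610_s_at, 1433732_x_at, 1422611_s_at and 1453957_a_at. Leaving out 1 array they ran from 0.17 to 0.50, 0.51 to 1.23, -0.12 to 0.46, 0.86 to 1.71 and -0.54 to 0.47, so that the third and the fifth changed sign. With U0126 against vehicle, 1433731_at rose by 0.81 ± 0.20 (adjusted p = 0.00951), 1 of 6 tested Igf2bp probe sets, against 24.7% of all probe sets, 12.9% higher. This call was lost without vehicle replicate 2 (0.65, adjusted p = 0.0711) and without U0126 replicate 2 (0.75, adjusted p = 0.0671). With SB202190 against vehicle, 1422610_s_at rose by 0.87 ± 0.26 (adjusted p = 0.0251) and 1422611_s_at by 1.54 ± 0.48 (adjusted p = 0.0291), 2 of 6, against 28.9% of all probe sets, 15.4% higher. Both were lost without SB202190 replicate 1 (adjusted p = 0.141 and 0.0943) or 2 (0.0676 and 0.140), and under no normalization, no filter or no intensity trend. The first was also lost without vehicle replicate 1 (0.126) and the second without vehicle replicate 2 (0.158). No Igf2bp3 probe set was called by limma with U0126 or SB202190 against FGF2. The counts were 0 of 5 in each, against 16.3% and 1.91% of all probe sets. The tested Igf2bp1 probe set is left out of these counts, since it passed the filter through the FGF2 arrays. At unadjusted p under 0.05, 1 of 5 passed with U0126, against 29% of all probe sets, and 0 with SB202190, against 14.8%. Between the inhibitors, 0 of 6 Igf2bp probe sets were called by limma, against 16.7% of all probe sets, and 1 passed at unadjusted p under 0.05, against 29.2%.

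Pathway lists gave context for Hmga2, and each gene is represented by its probe set of highest mean. Several genes are in more than 1 list, among them Igf1r, Nras, Myc, Insr, Ptgs2 and Cdk6. Of 8 other high mobility group genes past the filter, 3 rose and 0 fell in FGF2 against vehicle (median log2 difference 0.25, against 0.02 over all probe sets). Hmgb2, a DNA-bending protein of dividing cells, rose by 0.57 ± 0.08 (limma, adjusted p = 2.39e-04), and without FGF2 replicate 1 the list's count was 1 in place of 3. With U0126 relative to SB202190, the sense of all differences between the inhibitors given here, 2 fell, Hmgn3 (-0.31 ± 0.05) and Hmgn1 (-0.28 ± 0.06), which are nucleosome-binding proteins.

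Of 14 genes reported to lie under Hmga control, 7 rose and 4 fell with FGF2 (median 0.25). Ccna2, a cyclin of S phase, rose by 1.24 ± 0.16, and its signal went from 68.5 and 73.0 in vehicle to 162.0 and 158.3. Twist1 rose by 0.97 ± 0.12, and Cdkn2b, an inhibitor of cyclin-dependent kinases, fell by 0.59 ± 0.07. Between the inhibitors 5 fell and 0 rose, with the smallest p for Ccna2 (-1.12 ± 0.16) and Ercc1, a DNA repair endonuclease subunit (-0.53 ± 0.10). This count was 2 without U0126 replicate 1 or SB202190 replicate 2, and the count of 4 that fell with FGF2 was 2 without vehicle replicate 2 or FGF2 replicate 1.

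Of 9 genes of let-7 processing, 3 rose and 1 fell with FGF2 (median 0.47), and 1 rose without FGF2 replicate 1. Drosha, the nuclease of primary miRNAs, fell by 0.93 ± 0.12, and between the inhibitors only Xpo5 was called (0.43 ± 0.12, adjusted p = 0.0316), a call that was lost without U0126 replicate 1 or either SB202190 replicate. Lin28b, Lin28a and Trim71 did not pass the filter, with signals of 0.364 to 10.01, 1.17 to 11.6 and 3.39 to 15.98. Of 18 reported let-7 targets, 5 rose and 0 fell with FGF2 (median 0.22), and 1 rose and 4 fell between the inhibitors. Rrm2, a subunit of ribonucleotide reductase, rose by 1.48 ± 0.08 with FGF2 (signals of 380.3 and 367.7 against 1055 and 1071) and fell by 1.49 ± 0.08 with U0126 relative to SB202190. Igf1r fell by 0.84 ± 0.12 and Tgfbr1 by 0.83 ± 0.13 there, while Cdc34, a ubiquitin-conjugating enzyme, rose by 0.65 ± 0.08.

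Of 13 reported protein partners of Igf2bp in mRNA granules, 7 rose and 1 fell with FGF2 (median 0.22). Without vehicle replicate 2 or FGF2 replicate 2 the counts were 4 and 0. The RNA-binding proteins Syncrip, Pabpc1 and Elavl1 rose by 0.68 ± 0.07, 0.42 ± 0.05 and 0.53 ± 0.08. Between the inhibitors 5 fell, with the smallest p, in this order, for Ptbp1, a splicing regulator (-0.45 ± 0.06), Matr3 (-0.32 ± 0.05) and Dhx9 (-0.57 ± 0.10), a count that was 3 without either SB202190 replicate. Of 13 reported client mRNAs, 2 rose and 5 fell with FGF2: Cd44, a hyaluronan receptor, rose by 0.99 ± 0.06 (1526 and 1514 against 3047 and 3198), and Igf2, the growth factor that names the Igf2bp family, fell by 0.95 ± 0.10. The count of 5 was 3 without any 1 of the vehicle or FGF2 arrays. Of 12 writers, readers and erasers of m6A, an mRNA base mark, 0 rose and 1 fell with FGF2, Alkbh5 (-0.41 ± 0.09), which is no longer called with median centring. Wtap and Mettl3 were called between the inhibitors (-0.26 ± 0.06 and 0.33 ± 0.09) and were not with median centring (adjusted p = 0.0640 and 0.0546), nor without either SB202190 replicate. Without an intensity trend in the fit, Hmgn3, Hmgn1, Ercc1, Matr3, Dhx9 and Xpo5 also lost their calls between the inhibitors, with adjusted p from 0.0563 to 0.139. Centring moved the median of all probe sets to 0.16 in FGF2 against vehicle, where the counts higher were then 6, 7, 5, 8, 12, 5 and 2 for the 7 lists in the order given. The counts lower were then 0, 3, 1, 0, 0, 3 and 0. Without an intensity trend the counts higher with FGF2 were 1, 6, 1, 3, 4, 2 and 0, and the counts lower were 0, 2, 1, 0, 0, 2 and 1. These lists were called in 37.5%, 78.6%, 44.4%, 27.8%, 61.5%, 53.8% and 8.33% of their genes with FGF2, against 30.5% of all probe sets. Between the inhibitors the shares were 25.0%, 35.7%, 11.1%, 27.8%, 38.5%, 15.4% and 16.7%, against 16.7%. Over all 27061 probe sets, 4333 were called higher and 3910 lower with FGF2, and 2219 higher and 2289 lower between the inhibitors. The lists count 1 probe set per gene, that of highest mean, and the shares over all probe sets count every probe set, so the 2 are not strictly alike. The lists were also chosen with earlier results of these data known. Nothing is therefore read from their shares against those over all probe sets.

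**Figure D3:**
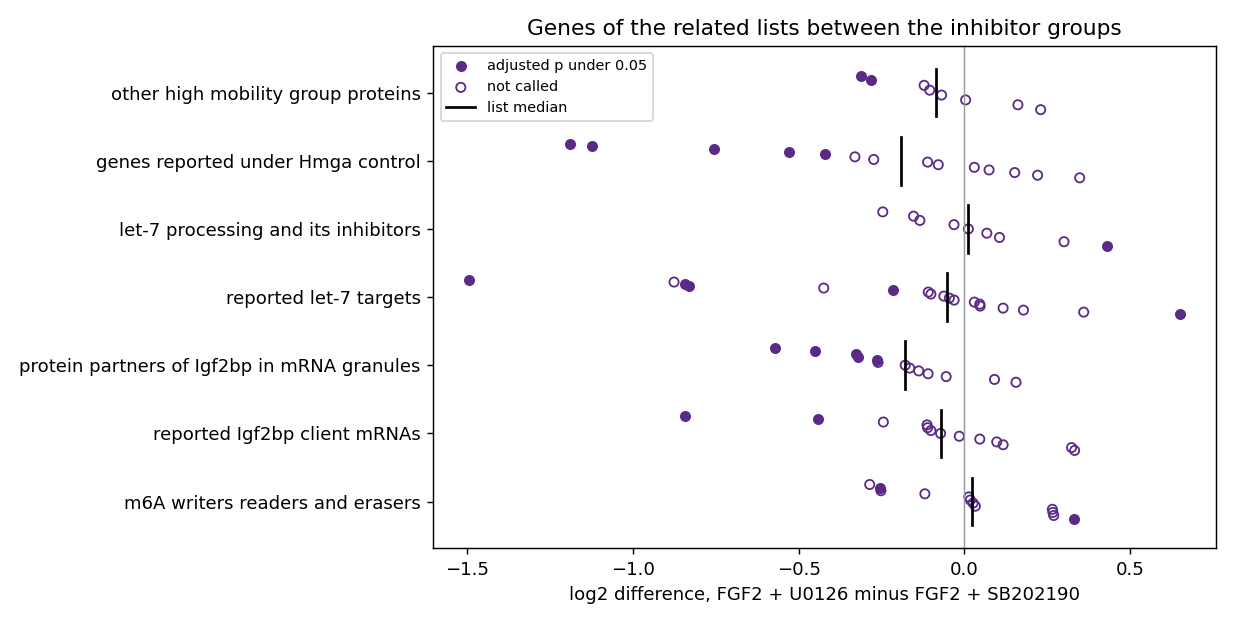
log2 difference, on the x axis, between FGF2 with U0126 and FGF2 with SB202190 for each gene past the filter in the 7 lists; filled points have an adjusted p under 0.05, open points do not, and black bars are list medians. The list of genes reported under Hmga control has 5 filled points, all below 0, and a median of -0.19.

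The genes with the profile most like Hmga2, by Pearson r with 1450780_s_at over the 8 arrays among 277 genes whose group means spanned at least 2 on the log2 scale, were Tmem171 (r = 0.995), Ereg (0.982), Rgs16 (0.981), Csn3 (0.980), Igfbp3, Mcm5, Kitl and Cd34 (0.976 each), Tubb6 (0.973) and Pde2a (0.969). Ereg, an EGF receptor ligand, had mean signals of 21.3 in vehicle, 106 in FGF2, 37.8 with U0126 and 123 with SB202190. Igfbp3, which binds insulin-like growth factors, had 689, 3222, 1826 and 2540. Mcm5, part of the replicative helicase, had 120, 497, 219 and 370. Csn3 and Tmem171 had vehicle means of only 1.30 and 4.68, and a pseudocount of 16 moved their log2 differences between FGF2 and vehicle from 4.09 and 3.46 to 1.89 and 1.93. The points share 4 group means, so the correlation describes the likeness and has no test. For the members, r with 1450780_s_at was 0.982 and 0.997 for the other Hmga2 probe sets, and -0.23 for 1446196_at. It was 0.825, 0.852, 0.315, 0.320 and -0.21 for Igf2bp3 1422610_s_at, 1422611_s_at, 1433731_at, 1433732_x_at and 1453957_a_at, and 0.472 for Igf2bp1 1459825_x_at.

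**Figure D4:**
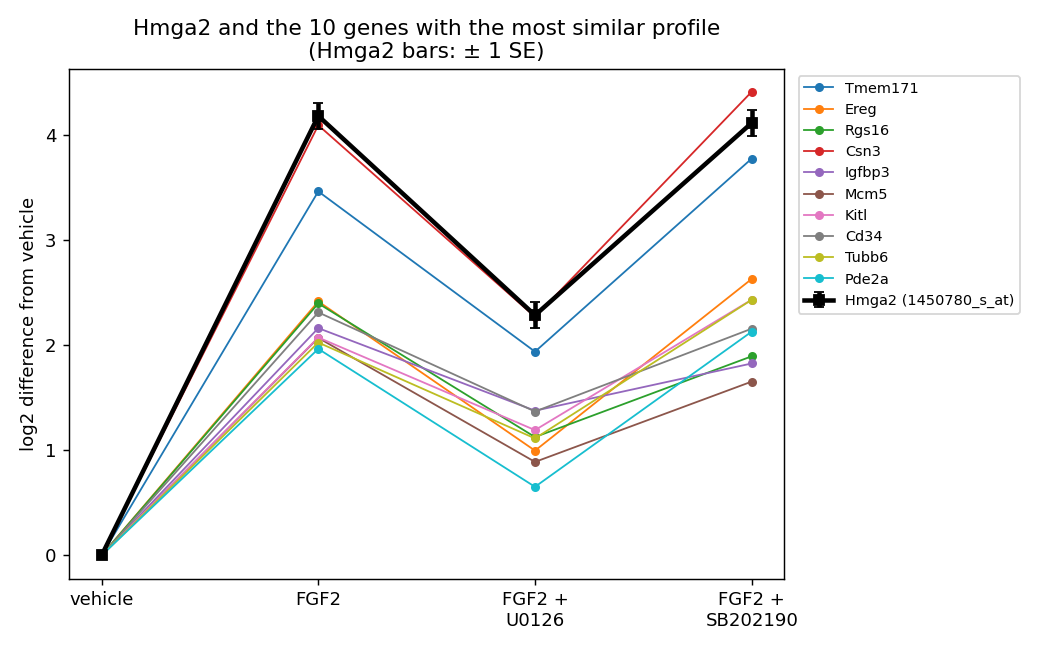
log2 difference from vehicle, on the y axis, of Hmga2 (black squares, bars of 1 SE) and of the 10 most similar genes over the 4 groups. Every line is higher with FGF2 than in vehicle and lower with U0126 than with SB202190; the heights of Csn3 and Tmem171 depend on the pseudocount.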

How the data were processed

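The samples were 8 Affymetrix mouse arrays in 4 groups of 2. The deposited values are linear probe set intensities, and each array has the same trimmed mean of 150.0 with 2% left out at each end, found from the values; the algorithm and scanner settings are not given in the sources used here. Genes were named from the platform annotation, in which 34958 probe sets have 1 symbol, 932 several and 9211 none. The intensities plus 1.77, their 10th percentile, were put on the log2 scale and quantile normalized. The 27061 probe sets with a mean log2 value of at least 3.83, the 40th percentile, were fitted with limma 3.58.1 (R 4.3.3, intensity trend, 1 term per group, 4 residual and 8.22 prior degrees of freedom), and p-values were Benjamini-Hochberg adjusted within each comparison and called under 0.05. SEs are from that fit. Fold changes are on the log2(value + pseudocount) scale, which understates changes of low signals, whereas ratios of mean signals use the deposited values. The number of arrays limits the precision. Same-numbered samples did not deviate together (r from -0.02 to 0.02 over 6 pairs of groups), so the numbers were not used as pairs.

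The named genes are all member probe sets, up to 4 genes with the smallest p per list, and the 10 genes most like Hmga2. The members and lists were chosen with earlier results of these data known. Medians of lists are over genes past the filter. Figures and sequence searches used Python 3.11.15. The fit was tested on simulated data. Alternatives were other pseudocounts, normalizations and filters, no trend, 1 probe set per gene, a replicate block and leaving out each array.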

Additional observations from a re-analysis of the deposited data

How the results depend on the processing

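Hmga2 stayed lower with U0126 than with SB202190, and called, on each of 3 probe sets under every alternative that fitted it; 1 member was called there with 1 probe set per gene, since that keeps 1 Hmga2 probe set. Leaving out each array in turn left 3 to 3 members called. The Igf2bp calls depended on the setting. For SB202190 against vehicle, 0 were called with no normalization, no filter, no intensity trend or 1 probe set per gene, 1 with a filter at the 60th percentile, and 0 to 2 without 1 array. For U0126 against vehicle, 2 were called with median centring, and 0 to 2 without 1 array. The cause was not tested, other than that 1 probe set per gene and the filter at the 60th percentile test fewer.

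Over all probe sets, 1 probe set per gene gave 4991 calls (FGF2 against vehicle), 2916 (U0126 against FGF2), 2986 (U0126 against SB202190), 4177 (U0126 against vehicle) and 4722 (SB202190 against vehicle), in place of 8243, 4409, 4508, 6696 and 7833. With no intensity trend, U0126 against FGF2, against SB202190 and against vehicle gave 1650, 1745 and 4092, and SB202190 against FGF2 gave 0 by limma in place of 516; median centring gave 340 there. Without 1 array the counts were 2365 to 4412 (U0126 against FGF2), 84 to 502 (SB202190 against FGF2), 2499 to 4556 (U0126 against SB202190), 4947 to 6457 (U0126 against vehicle), 5744 to 7877 (SB202190 against vehicle) and 5998 to 8253 (FGF2 against vehicle). The replicate block gave 8133 calls in FGF2 against vehicle, 4283 in U0126 against FGF2 and 493 in SB202190 against FGF2. It gave 4450 in U0126 against SB202190, 6584 in U0126 against vehicle and 7743 in SB202190 against vehicle. Members called in the last 5 of these comparisons were 0, 0, 3, 1 and 2. The block changed no member's call, and the labels do not say whether equal numbers pair the samples. Median centring moved the share of calls that were higher from 52.6% to 74.7% (FGF2), 52.3% to 79.3% (U0126) and 53.3% to 76.2% (SB202190) against vehicle.

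Uncalled Igf2bp differences changed sign. SB202190 minus FGF2 on Igf2bp3 1422610_s_at was 0.0099 with no normalization and 0.019 with median centring, and SB202190 minus vehicle on Igf2bp1 was -0.067 with no normalization. Leaving out 1 array, the U0126 minus FGF2 ranges were -0.53 to 0.18 (1422610_s_at), -0.81 to 0.28 (1422611_s_at) and -0.075 to 0.74 (1433732_x_at). For SB202190 minus FGF2 they were -0.76 to 0.33 (1453957_a_at), -0.36 to 0.36 (1422610_s_at) and -0.24 to 0.17 (1433731_at), and for Hmga2 1422851_at, with no test, -0.12 to 0.11. For U0126 minus SB202190 they were -1.07 to 0.023 (1422611_s_at), -0.28 to 0.53 (1433732_x_at) and -0.94 to 0.22 (Igf2bp1). For U0126 minus vehicle, Igf2bp1 ran from -0.74 to 0.43, and for SB202190 minus vehicle from -0.066 to 0.48, with 1453957_a_at from -0.80 to 0.29. Signals near the filter limit what Igf2bp1 can show.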
